A study of Mus musculus with 7 samples.

Results

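The 7 genes followed here were grouped as genes of lymphoid egress (leaving a lymphoid organ) and homing. The 7 are the transcription factors Klf2, Klf3 and Foxo1, the sphingosine-1-phosphate (S1P) receptors S1pr1, S1pr4 and S1pr5, and Cd69. They were chosen by name, and all 7 were found among the 27998 genes of the deposited matrices. A T cell leaves the spleen or a lymph node by following S1P, a lipid that is plentiful in blood and lymph, through the G protein-coupled receptor S1PR1. FOXO1, which is kept out of the nucleus by signalling through PI3K and AKT, drives Klf2, and KLF2 in turn drives S1pr1. CD69, which appears within hours of T cell activation, binds S1PR1 and pulls it off the cell surface, so that the activated cell is retained.

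Single spleen T cells were profiled by droplet 3' sequencing, which counts transcripts as unique molecular identifiers (UMIs). All mice were C57bl/6 and had been infected with LCMV Arm, the Armstrong strain of lymphocytic choriomeningitis virus, which causes an acute infection. In 2 libraries (total replicates 1 and 2), CD44high CD4+ and CD8+ cells of wild type mice at day 7 had been sorted apart and joined in equal parts, CD44 being high on T cells that have met antigen. A different sort took CD44high CD4+ cells of wild type mice at day 7 that bound GP66:I-Ab (GP66+, 1 library), a tetramer in which I-Ab, a class II molecule, presents a viral peptide. The other 4 libraries held CD44high GP66:I-Ab+ RosaYFP+ cells of Ox40-Cre+ mice, with either Thpokwt/wt (called sufficient) or Thpokfl/fl (called deleted) alleles, at day 7 and at day 30, 1 library each, and for these no CD4 gate is named. Cre driven by Ox40, a gene that T cells switch on after activation, marked the cells with yellow fluorescent protein and deleted Zbtb7b, which encodes the helper lineage factor Thpok, after the response had begun. No source used here gives the number of animals per library, so p-values below reflect only how these libraries spread, and that spread may be technical. Only the total cells came as more than 1 library of a group, and no source used here gives the ages of the mice.

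Between 725 and 6845 cells per library were kept, with 2017 (sufficient, day 30) to 5900 (deleted, day 7) UMIs in the median cell. In the total libraries, CD4-like cells (a Cd4 UMI and none of Cd8a or Cd8b1; 1440 and 550 cells) and CD8-like cells (the reverse; 3480 and 1074 cells) were summed apart, and in the GP66+ libraries all cells were summed. Zbtb7b, the deleted gene, had 41.5 and 54.9 UMIs per 1000000 UMIs of all genes (CPM) in CD4-like total cells and 20.6 to 31.4 CPM in the 3 Thpok-intact GP66+ libraries, against a single UMI in each deleted library (0.113 and 0.467 CPM). Cd3e was between 256 and 439 CPM in every sum, while Ncr1, which defines natural killer cells, was at 0 in the 5 GP66+ libraries. Of the cells sorted with the class II tetramer, 243 of 1319 deleted cells at day 7 and 54 of 736 at day 30 were CD8-like, against 39, 49 and 6 in the wild type and the sufficient libraries of day 7 and day 30. The 4 haemoglobin genes summed to 6223 CPM in the deleted library of day 30 and to at most 270.1 CPM in the other sums, so that levels in that library are a share of a pool holding red cell RNA. Libraries shared between 1 and 25 cell barcodes.

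Klf2 differed widely between captures. Replicate 1 of the total cells joins 3 sets of barcodes, and Klf2 was at 585 CPM in set 1, 722 in set 2 and 138 in set 3 of its CD4-like cells, and at 746, 1005 and 214 CPM in its CD8-like cells. Among 4894 genes of CD4-like cells with at least 20 CPM, Klf2 had the lowest ratio of set 3 over sets 1 and 2 (log2 of -2.22, where the 1st percentile of genes was -0.55), and it ranked 5th lowest of 4719 genes in CD8-like cells (log2 of -2.02). The other 6 members had log2 ratios between -0.29 and 0.28 in these comparisons where they reached 20 CPM. The sets had similar depth, with medians of 3904, 3844 and 4207 UMIs per cell. Klf2 was also 22.8-fold higher in the sufficient than in the wild type GP66+ library of day 7, although both are Thpok-intact, and 0.367-fold in CD4-like cells of replicate 1 over replicate 2. S1pr5 also differed between the total replicates, by 2.35-fold in CD8-like cells (counting interval 2.07 to 2.68), beyond the 99th percentile of genes on the log2 scale (1.15 against 0.64). Differences of Klf2 between libraries are therefore printed below as values and not read, and its comparisons are those within a library. S1pr5 is compared between libraries below, and its 2.35-fold difference between replicates limits those comparisons. The cause of the differences between captures was not tested.

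**Figure D1:**
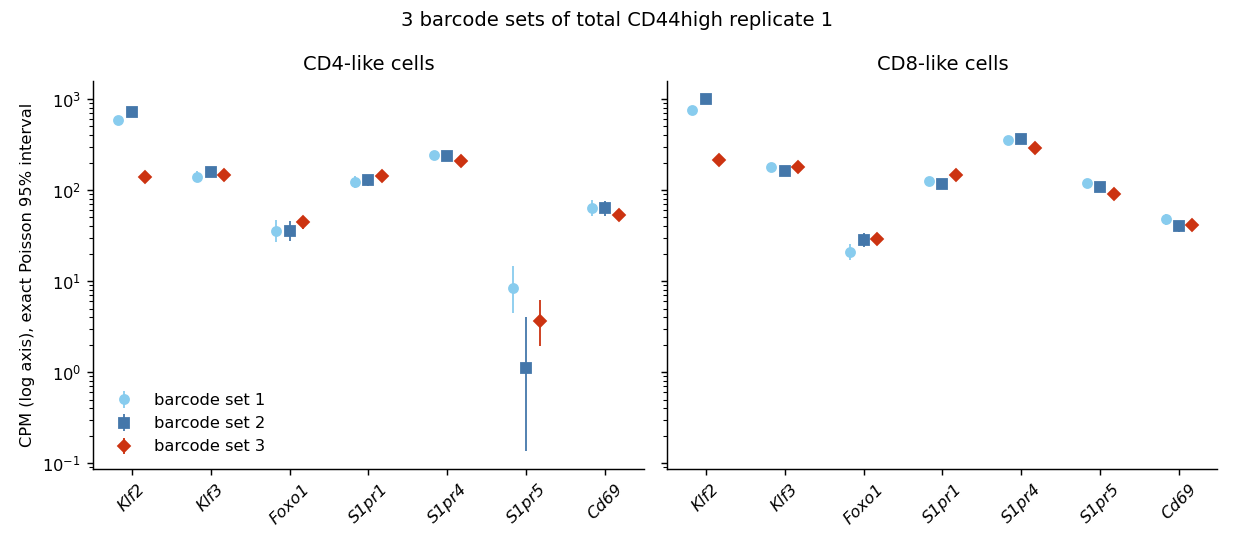
Level of each gene in CPM (log axis, exact Poisson 95% interval, which covers counting error only) in the 3 barcode sets of total replicate 1, for CD4-like (left) and CD8-like (right) cells. Klf2 in set 3 stands at 138 and 214 CPM, below sets 1 and 2, while the symbols of the other genes lie close together, apart from S1pr5 in CD4-like cells, which rests on 2 to 13 UMIs per set.

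The promoters of 3 genes are shown: S1pr4 and S1pr5, which were both higher in CD8-like and in Klrg1+ cells in the comparisons that follow, and Klf2, the factor that differed between captures. Each window runs from 250 bases before to 50 bases after the start of the gene in RefSeq (GRCm38.p6), where 5 of the 7 members had an entry. S1pr5 starts on the minus strand (chr9:21248394-21248693), S1pr4 on the minus strand (chr10:81500088-81500387) and Klf2 on the plus strand (chr8:72318812-72319111). Capitals mark every match, on either strand, to a KLF box (CCACCC or GGGTGG), a ZEB E-box (CAGGTG or CACCTG), a T-box core (GGTGTGA or TCACACC), a FOXO site (TGTTTAC or GTAAACA) or a MEF2 site (the palindrome of 10 bases that is in capitals in the Klf2 window).
S1pr5: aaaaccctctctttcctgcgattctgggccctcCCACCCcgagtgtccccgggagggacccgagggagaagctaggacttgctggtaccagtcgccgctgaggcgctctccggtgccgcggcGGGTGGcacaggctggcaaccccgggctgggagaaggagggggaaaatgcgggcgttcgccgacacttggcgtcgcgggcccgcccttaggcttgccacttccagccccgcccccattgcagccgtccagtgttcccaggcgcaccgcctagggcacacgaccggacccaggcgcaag
S1pr4: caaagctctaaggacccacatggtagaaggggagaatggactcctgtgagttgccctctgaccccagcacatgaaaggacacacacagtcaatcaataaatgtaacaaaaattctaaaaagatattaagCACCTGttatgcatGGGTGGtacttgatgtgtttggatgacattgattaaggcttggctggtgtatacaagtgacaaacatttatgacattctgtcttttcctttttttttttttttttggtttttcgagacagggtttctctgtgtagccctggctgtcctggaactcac
Klf2: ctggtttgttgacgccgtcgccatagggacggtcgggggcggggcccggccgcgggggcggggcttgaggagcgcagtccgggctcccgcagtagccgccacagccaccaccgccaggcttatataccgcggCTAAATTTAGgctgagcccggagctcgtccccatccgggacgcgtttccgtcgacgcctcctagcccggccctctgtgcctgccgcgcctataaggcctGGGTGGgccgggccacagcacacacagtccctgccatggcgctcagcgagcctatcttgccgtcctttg
The S1pr5 window held 2 KLF boxes, which begin 217 and 128 bases before the start, and S1pr4 held a ZEB E-box at 121 and a KLF box at 107 bases before it. Klf2 held a KLF box at 19 bases and a MEF2 site at 118 bases before the start; MEF2 factors are known to drive Klf2 downstream of the kinase ERK5. A KLF box occurs in 31.5% of the 32851 promoter windows of this table and a ZEB E-box in 20.2%, so these matches are common, whereas the MEF2 site occurs in 13 windows (0.0396%). The Klf3 window held 3 KLF boxes, 121, 111 and 49 bases before the start, and that of Foxo1 had no match to any of the 5 motifs. No FOXO site or T-box core, which occur in 3.65% and 3.98% of windows, lay in the 5 windows, which says only that these letters are not there.

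On GRCm38 (GENCODE vM21), Klf2 lies on chromosome 8 (72319033 to 72321656, plus strand), Klf3 on chromosome 5 (64803388 to 64832901, plus), Foxo1 on chromosome 3 (52268336 to 52353221, plus) and S1pr1 on the same chromosome (115710433 to 115715072, minus). S1pr4 (chromosome 10, 81497747 to 81500132) and S1pr5 (chromosome 9, 21242912 to 21248443) are on the minus strand, as is Cd69 (chromosome 6, 129267325 to 129275436). Exons of Foxo1, Klf3 and S1pr5 overlap those of Gm20402, Gm20033 and Gm48303 on the opposite strand, of which only Gm20402 has a row in the matrices.

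The 7 genes had different orders of level over the 9 sums of cells (CPM of 3' tags, so levels are compared between cells and not between genes). Klf3, a repressor of the KLF family that binds the same boxes as KLF2, was highest at day 30, with 279 CPM in sufficient and 264.8 CPM in deleted cells, whose counting intervals overlap. It followed at 173 and 160.4 CPM in CD8-like cells of total replicates 1 and 2 and at 148.2 and 148.0 CPM in CD4-like cells, where each neighbour's interval overlaps the next. The day 7 GP66+ libraries were lowest, with 122 CPM in deleted, 89.7 in sufficient and 64.4 in wild type cells, and these intervals do not overlap.

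Foxo1 reached 84.1 CPM in deleted and 74.8 CPM in sufficient cells of day 30. It was at 60.3 CPM in sufficient cells of day 7, 56.6 CPM in CD4-like cells of total replicate 2, and 49.3 and 44.1 CPM in deleted and wild type cells of day 7. CD4-like cells of replicate 1 followed at 40.2 CPM, and CD8-like cells were lowest, at 37.3 CPM in replicate 2 and 26.7 CPM in replicate 1. From the highest to the lowest, each neighbour's counting interval overlapped the next, except between the CD8-like sums of the 2 replicates. Klf2 ran from 33.5 CPM in the wild type GP66+ library to 1721 and 1484 CPM in the sufficient and deleted libraries of day 30, and was at 762 CPM in sufficient and 406 CPM in deleted cells of day 7; this order is not read, for the reason above.

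S1pr1, the main egress receptor, had its highest level in sufficient cells of day 30, at 359.6 CPM. The deleted cells of that day had 177 CPM, and the other 7 sums lay between 118 (wild type GP66+) and 159.5 CPM (CD4-like, replicate 2). Apart from the sufficient library of day 30, each sum's interval overlapped that of its neighbour. S1pr4, a receptor found mainly on blood cells, was highest at 348 and 325 CPM in CD8-like cells (replicates 2 and 1), followed by 249 and 223 CPM in CD4-like cells, 222 CPM in deleted cells of day 7, 162 CPM in deleted cells of day 30 and 161 and 142 CPM in wild type and sufficient GP66+ cells of day 7. It was lowest, at 70.2 CPM, in the sufficient cells of day 30, in which S1pr1 was highest. Neighbours did not differ beyond counting error between the CD4-like sums and the deleted cells of day 7, or between the deleted cells of day 30 and the wild type cells.

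S1pr5, the receptor that natural killer cells and terminally differentiated effector cells use to leave tissues, had the widest range of the members. It was at 102 and 43.5 CPM in CD8-like cells of replicates 1 and 2, and at 4.06 CPM (28 UMIs) and 0.987 CPM (3 UMIs) in CD4-like cells. Deleted cells had 31.8 CPM (68 UMIs) at day 30 and 7.12 CPM (63 UMIs) at day 7. Wild type and sufficient GP66+ cells of day 7 had 0.0699 CPM (1 UMI) and 0.561 CPM (7 UMIs), and sufficient cells of day 30 had 0 of 1551772 UMIs, which allows up to 1.93 CPM (3 counts). Barcodes with 1 to 30 UMIs, which sample free RNA, held S1pr5 at 67.7 and 37.0 CPM in the total libraries, 38.2 CPM (9 UMIs) in the deleted library of day 30 and 2.83 CPM (1 UMI) in that of day 7, so the level in CD4-like total cells is below that of free RNA. The level in deleted cells of day 30 is not above that of the free RNA of its library either (counting interval of the latter 17.5 to 72.6 CPM). CD8-like cells of total replicate 2 lay within the interval of their free RNA (23.9 to 54.6 CPM). Deleted cells of day 7 did so too (0.0717 to 15.8 CPM). CD8-like cells of replicate 1 lay above theirs (57.0 to 79.8 CPM).

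Cd69 was highest in sufficient GP66+ cells, at 578 CPM at day 30 and 421 CPM at day 7. The wild type library of day 7 and the deleted library of day 30 followed at 343 and 341 CPM, with overlapping intervals, and the deleted library of day 7 at 186 CPM. Total cells were lowest, with 58.5 and 79.9 CPM in CD4-like and 42.5 and 70.7 CPM in CD8-like cells of replicates 1 and 2, so that all 5 GP66+ libraries lay above all 4 sums of total cells. In every library but the wild type GP66+ one, free RNA held both Cd69 and S1pr4 at no lower a level than the cells did. In the free RNA of that wild type library they were at 195 and 107 CPM.

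**Figure D2:**
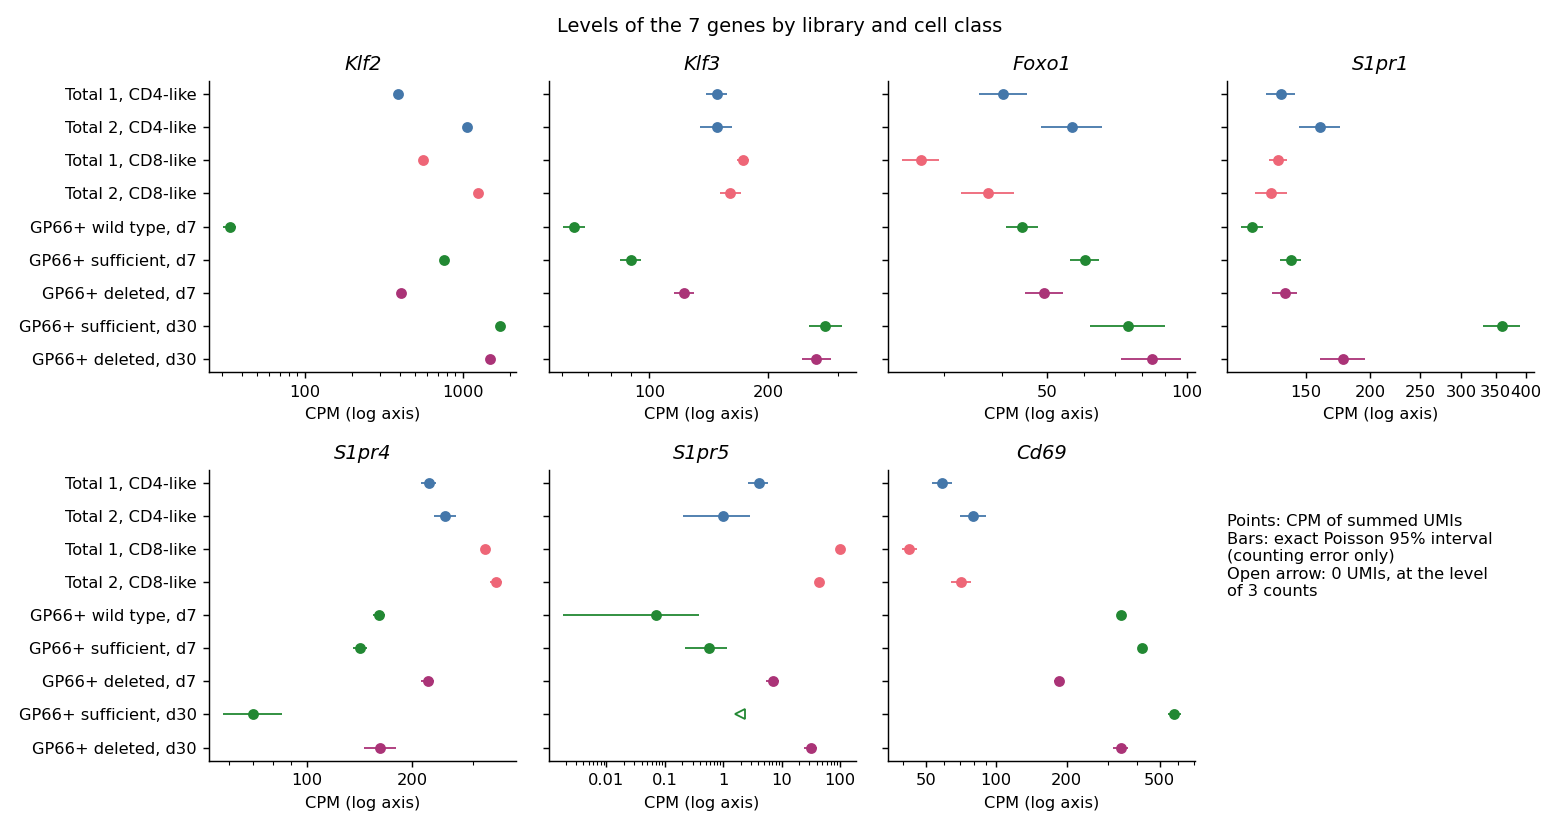
Level of each gene in CPM (log axis, exact Poisson 95% interval) in CD4-like (blue) and CD8-like (red) cells of total replicates 1 and 2 and in the Thpok-intact (green) and deleted (purple) GP66+ libraries. S1pr5 is at 43.5 and 102 CPM in CD8-like cells and at 0 UMIs in sufficient cells of day 30, drawn as an open arrow at 1.93 CPM, while all GP66+ libraries have more Cd69 than any sum of total cells.

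CD8-like cells had far more S1pr5 and more S1pr4, Klf2 and Klf3 than CD4-like cells of the same captures, and less Foxo1 and Cd69. Of the 7 members, 4 were higher and 2 lower at an adjusted p under 0.05 (edgeR quasi-likelihood test with Benjamini-Hochberg adjustment over all genes, as below, and here with the library as a block), against 38.3% of the 10201 genes tested (18.8% higher and 19.5% lower; 13.5% called with DESeq2). The members' median log2 fold change was 0.26, and that of all genes -0.02. S1pr5 was 25.2-fold higher in replicate 1 (counting interval 17.4 to 38.1) and 44.1-fold in replicate 2 (14.9 to 215), with a log2 fold change of 4.85 ± 0.17 (SE, 2 libraries) and an edgeR adjusted p of 5.5e-72. S1pr4 was 1.45-fold and 1.40-fold higher (log2 0.60 ± 0.07, edgeR adjusted p = 2.7e-15). CD8-like cells of both replicates exceeded CD4-like cells of both replicates for each of these receptors.

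S1pr1 did not differ detectably between the lineages, with ratios of 0.988 and 0.806 in replicates 1 and 2 and a log2 fold change of -0.07 ± 0.08 (edgeR adjusted p = 0.55). Klf2 was 1.44-fold higher in CD8-like cells of replicate 1 and 1.19-fold in replicate 2 (log2 0.47 ± 0.05, edgeR adjusted p = 7.6e-14), and it was higher in CD8-like cells of each of the 3 barcode sets. Klf3 was 1.17-fold and 1.08-fold higher (log2 0.26 ± 0.08, edgeR adjusted p = 0.0040), whereas Foxo1 was 0.664-fold and 0.659-fold (log2 -0.51 ± 0.11, edgeR adjusted p = 3.9e-05). Cd69 was 0.726-fold and 0.885-fold (log2 -0.25 ± 0.09, edgeR adjusted p = 0.021). With 1 residual degree of freedom these tests lean on the spread shared by all genes, and DESeq2 kept the calls of S1pr5, S1pr4 and Klf2 but not those of Klf3 (adjusted p = 0.17), Foxo1 (0.11) and Cd69 (0.56). Klf3 also lost its call with scaling by library totals (adjusted p = 0.069), and Cd69 without a filter on low counts (0.078) or without cells of high UMI totals (0.065).

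Within CD8-like cells of the total libraries, cells with a Klrg1 UMI and none of Il7r (1794 and 484 cells; median 4239 and 5595 UMIs) were set against cells with Il7r and no Klrg1 (484 and 103 cells; 4039 and 3838 UMIs). KLRG1 marks short-lived effector cells, and the interleukin-7 receptor gene Il7r marks cells with memory potential. S1pr5 was at 154 and 68.3 CPM in Klrg1+ cells of replicates 1 and 2 and at 17.2 and 15.4 CPM in Il7r+ cells, and S1pr4 at 359 and 368 against 215 and 274 CPM. Foxo1 was at 20.9 and 29.0 CPM in Klrg1+ and at 43.4 and 57.0 CPM in Il7r+ cells, and Cd69 at 24.1 and 58.8 against 111 and 105 CPM. For each of these 4 genes both Klrg1+ sums lay on the same side of both Il7r+ sums. With 2 libraries this is a weak check, and the share of all genes for which it holds was not counted.

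In the test, S1pr5 (log2 2.84 ± 0.20, edgeR adjusted p = 1.0e-42) and S1pr4 (0.47 ± 0.10, 5.2e-05) were higher in Klrg1+ cells. Cd69 (-1.88 ± 0.15, edgeR adjusted p = 1.9e-31), Foxo1 (-1.19 ± 0.20, 6.0e-08), Klf3 (-0.33 ± 0.11, 0.013) and S1pr1 (-0.32 ± 0.12, 0.032) were lower. Thus 2 members were higher and 4 lower, against 28.1% of the 8809 genes tested (13.7% higher and 14.4% lower; 7.28% called with DESeq2), with a median of -0.32 over the members and -0.01 over all genes. Klf2 did not pass (log2 -0.02 ± 0.09, edgeR adjusted p = 0.87), but the replicates went in opposite directions. It was at 618 CPM in Klrg1+ and 486 CPM in Il7r+ cells of replicate 1, a ratio of 1.27 (counting interval 1.19 to 1.36). In replicate 2 it was at 1341 and 1459 CPM, a ratio of 0.919 (0.847 to 0.999). DESeq2 kept the calls of S1pr5, Foxo1 (adjusted p = 0.023) and S1pr4 (0.049) and not those of Cd69 (0.10), Klf3 (0.32) and S1pr1 (0.47). Scaling by library totals, which raised the median of all genes by 0.16, ended the calls of Klf3 (-0.19, adjusted p = 0.34) and S1pr1 (-0.16, 0.36), and leaving out barcode set 3 ended that of S1pr1 (adjusted p = 0.054).

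Among Thpok-intact helper cells, those with a Cxcr6 UMI and none of Cxcr5 had more S1pr4 and less Foxo1 and Cd69 than those with Cxcr5 and no Cxcr6. CXCR6 marks type 1 helper cells, and CXCR5 marks follicular helper cells, which it guides into B cell follicles. S1pr4 was at 329.8 and 327.7 CPM in Cxcr6+ cells of total replicates 1 and 2, 225 CPM in wild type, 207 CPM in sufficient cells of day 7 and 134 CPM in sufficient cells of day 30, against 141, 185, 126, 110.3 and 40.7 CPM in Cxcr5+ cells. It was higher in Cxcr6+ cells in 5 of 5 libraries, by 1.77-fold to 3.28-fold. The highest ratio, in sufficient cells of day 30, rested on 6 UMIs in Cxcr5+ cells (counting interval 1.27 to 9.99). The deleted libraries, which were not in the test, also had more S1pr4 in Cxcr6+ cells. Levels there were 237 against 141 CPM at day 7 and 191 against 71.5 CPM (3 UMIs) at day 30.

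Over the 5 intact libraries with the library as a block, S1pr4 had a log2 fold change of 0.92 ± 0.09 (edgeR adjusted p = 1.7e-08), Foxo1 of -0.62 ± 0.12 (0.00043) and Cd69 of -0.52 ± 0.10 (0.00018). Of the 6 members tested 1 was higher and 2 lower, against 28.1% of the 9142 genes tested (14.3% higher and 13.8% lower; 18.8% called with DESeq2); their median was -0.25 and that of all genes -0.03. Foxo1 was lower in Cxcr6+ cells in 5 of 5 libraries, with ratios from 0.610 to 0.844. Its counting interval reached 1 in total replicate 2 (0.367 to 1.01) and in sufficient cells of day 30 (12 and 14 UMIs, 0.357 to 1.97). The deleted libraries, with 10 and 2 Foxo1 UMIs in Cxcr5+ cells, had ratios of 1.04 (0.553 to 2.19) and 1.84 (0.494 to 15.5). These intervals also span 1 and are too wide to set against the intact libraries. Cd69 had ratios of 0.792, 0.634, 0.809 and 0.536 in total replicate 1, wild type, sufficient day 7 and sufficient day 30, and equal levels (74.3 and 74.2 CPM) in total replicate 2, so it was lower in Cxcr6+ cells of 4 of the 5. Klf3 (0.09 ± 0.11, edgeR adjusted p = 0.56) and S1pr1 (-0.16 ± 0.10, 0.26) did not pass. S1pr5 was too low to test, with 14, 2, 0, 3 and 0 UMIs in Cxcr6+ and 1, 0, 0, 0 and 0 in Cxcr5+ cells of the same libraries.

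Klf2 did not pass in this comparison (log2 -0.35 ± 0.13, edgeR adjusted p = 0.055; DESeq2 0.26), but libraries differed in direction. It was at 431 CPM in Cxcr6+ and 317 CPM in Cxcr5+ cells of total replicate 1, and at 1007 and 1078 CPM in replicate 2. In GP66+ cells it was lower in Cxcr6+ cells in 5 of 5 libraries, deleted ones included, with ratios of 0.877 (wild type), 0.603 and 0.630 (sufficient and deleted, day 7) and 0.483 and 0.575 (sufficient and deleted, day 30). Without total replicate 1, Klf2 passed (-0.58, edgeR adjusted p = 0.00049), as did S1pr1 (-0.29, 0.033), and without barcode set 3 of that replicate Klf2 passed narrowly (-0.37, 0.044). With all libraries it passed without cells of high UMI totals (-0.42, 0.022), without a filter on low counts (0.00060) and where B and myeloid cells were removed by UMIs rather than clusters (0.048).

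**Figure D3:**
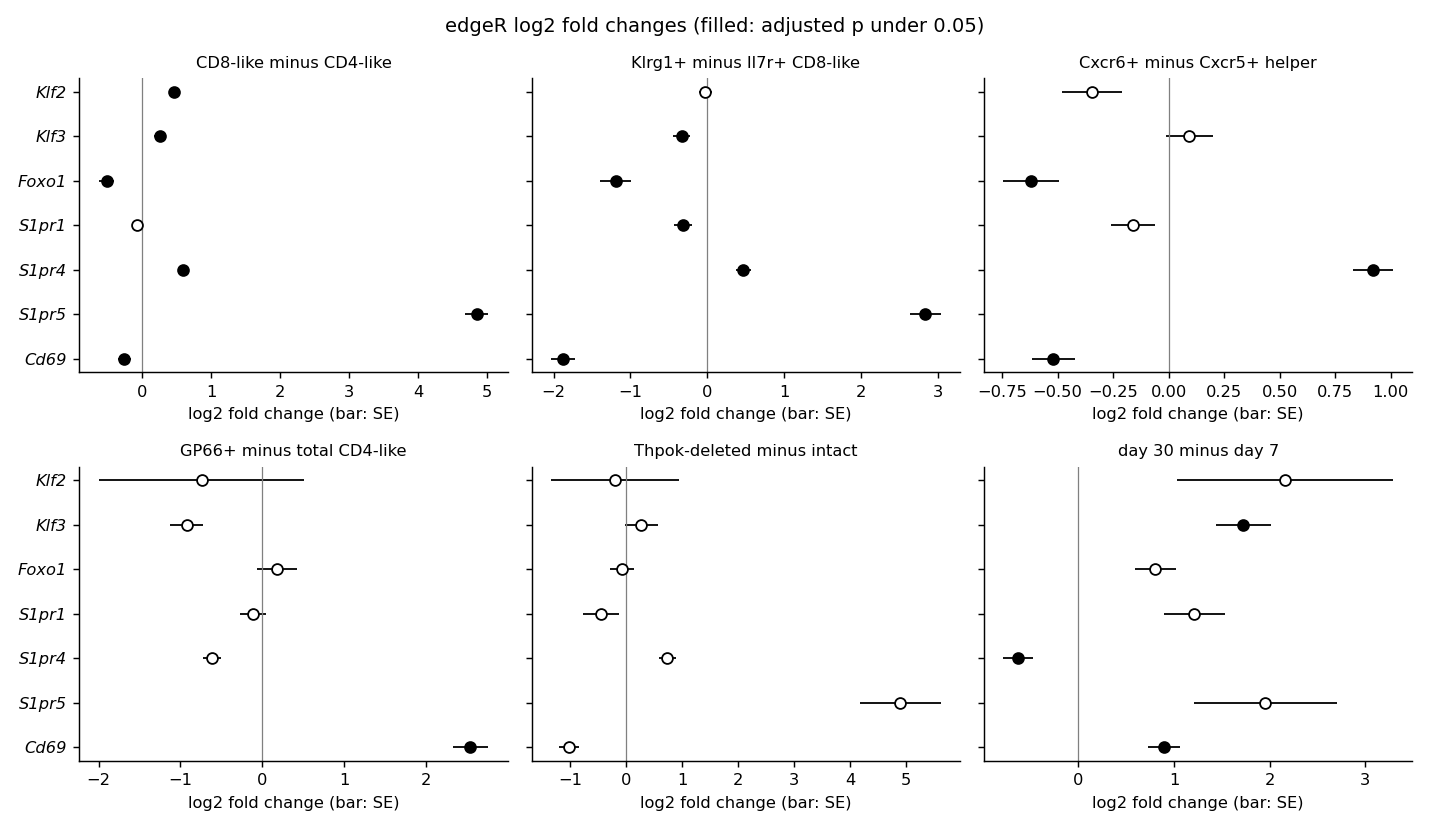
Log2 fold change from edgeR with its standard error for each gene in 6 comparisons; filled circles have an adjusted p under 0.05, and S1pr5 was too low to test in the helper and GP66+ comparisons. S1pr4 and S1pr5 lie to the right for CD8-like (0.60 and 4.85) and Klrg1+ (0.47 and 2.84) cells, and Cd69 lies far to the right (2.54) only for GP66+ against total CD4-like cells.

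GP66+ cells had more Cd69 than total CD4-like cells at day 7. Its level in CD4-like cells was 335 CPM in the wild type and 421 CPM in the sufficient GP66+ library, against 58.5 and 79.9 CPM in the total replicates, so that the groups did not overlap (log2 2.54 ± 0.22, edgeR adjusted p = 0.021). It was the only one of 6 members to pass, against 0.477% of the 10264 genes tested, all of them higher in GP66+ cells (1.73% called with DESeq2); the members' median was -0.37 and that of all genes 0.00. With 2 libraries a group the call was lost without total replicate 1 (2.37, edgeR adjusted p = 0.39) or replicate 2 (2.72, 0.16), at a like fold.

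S1pr4 was lower in GP66+ cells in all libraries, at 156 and 137 CPM against 223 and 249 CPM in total CD4-like cells, as was Klf3, at 63.8 and 84.1 against 148.2 and 148.0 CPM. Neither passed with edgeR (S1pr4 -0.62 ± 0.11, adjusted p = 0.13; Klf3 -0.93 ± 0.20, 0.18), and both did with DESeq2 (0.017 and 0.020); Klf3 also passed with edgeR without the sufficient library (-1.22, 0.0023). Both passed without a filter on low counts (0.0094 and 9.8e-06). S1pr1 (-0.12 ± 0.16, edgeR adjusted p = 0.79) and Foxo1 (0.18 ± 0.24, 0.79) did not pass. For Klf2 the fold change was -0.74 ± 1.25 (edgeR adjusted p = 0.84), and it depended on single libraries: -4.45 (0.00049) without the sufficient and 0.20 (0.93) without the wild type library. It passed without a filter on low counts (-0.73, 0.00096). The 2 GP66+ libraries thus gave opposite signs for Klf2 against the same total cells.

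Deletion of Thpok went with more S1pr5 and S1pr4 and less Cd69 at both days, but none of the 7 members passed at an adjusted p under 0.05 in edgeR, against 1.11% of the 10812 genes tested (0.731% higher and 0.379% lower). At an unadjusted p under 0.05 there were 3 members in edgeR, S1pr5, Cd69 and S1pr4, against 17.7% of the genes tested. The same 3 passed with adjustment in DESeq2, against 4.37% of genes there. S1pr5 was 12.7-fold higher in deleted than sufficient cells of day 7 (counting interval 5.81 to 32.8). It was also higher at day 30, where sufficient cells were at 0 and the counting interval of the ratio began at 13.0. Free RNA of the deleted library of day 30 held S1pr5 at 38.2 CPM, against 31.8 CPM in its cells, and its part in this result was not tested. Over both days its log2 fold change was 4.90 ± 0.72 (edgeR adjusted p = 0.060; DESeq2 4.3e-05). In CD4-like cells alone it was at 5.54 CPM (16 UMIs) and 21.4 CPM (13 UMIs) in deleted cells of day 7 and day 30, against 1, 1 and 0 UMIs in the wild type and the sufficient libraries of day 7 and day 30 (5.49, edgeR adjusted p = 0.047). CD8-like cells of the deleted libraries had 9.28 CPM (15 UMIs) at day 7 and 22.9 CPM (4 UMIs) at day 30.

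The S1pr5 result moved across the threshold with the libraries and scaling used: it passed without the wild type library (4.27, edgeR adjusted p = 0.011), without the sufficient library of day 7 (6.91, 0.029), with library totals (4.95, 0.046) and without a filter on low counts (3.4e-05). S1pr4 was 1.56-fold higher in deleted than sufficient cells at day 7 and 2.31-fold at day 30, with a log2 fold change of 0.74 ± 0.15 (edgeR adjusted p = 0.094; DESeq2 0.033; 0.017 without a filter). Cd69 was 0.442-fold at day 7 and 0.590-fold at day 30 (-1.01 ± 0.18, edgeR adjusted p = 0.076; DESeq2 0.0025), and passed with edgeR without the wild type library (-1.09, 0.017) and without a filter (0.0021). At day 30, free RNA held S1pr4 at 319 CPM in the deleted and 117 CPM in the sufficient library, against 162 and 70.2 CPM in their cells. Cd69 was at 565 and 681 CPM in that free RNA, against 341 and 578 CPM in the cells. The part of free RNA in the S1pr4 and Cd69 results was not tested. Cells with Cxcr6 and no Cxcr5 were 686 of 1319 deleted, 313 of 2138 sufficient and 351 of 2212 wild type cells of day 7. Within them S1pr4 was at 237, 207 and 225 CPM in these libraries. At day 30 such cells were 311 of 736 deleted and 64 of 725 sufficient cells, with S1pr4 at 191 and 134 CPM. The part of this mix of cells in the S1pr4 result was not tested. The 5 natural killer markers, which include Eomes, summed to 3.61 to 7.09 CPM in the 3 intact libraries and to 55.1 and 81.7 CPM in the deleted libraries of day 7 and day 30, with Ncr1 at 0 in all 5 libraries. Eomes alone had a mean of 60.0 CPM in the deleted and 1.93 CPM in the intact libraries, as scaled for the genotype test. The part of these markers in the S1pr5 result was not tested.

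S1pr1 behaved differently at the 2 days in single libraries. It was 0.973-fold in deleted over sufficient cells at day 7 (counting interval 0.903 to 1.05) and 0.492-fold at day 30 (0.431 to 0.562), where sufficient cells had 359.6 CPM and deleted cells 177 CPM. The test of that difference gave a log2 interaction of -1.36 ± 0.34, with an unadjusted p of 0.022 and an edgeR adjusted p of 0.70, so it did not pass. No gene passed the interaction test in edgeR (0 of 11338, with 759 at an unadjusted p under 0.05; 6 passed with DESeq2, 0.0529%), and of the members S1pr1 alone was under 0.05 unadjusted in edgeR. Over both days S1pr1 had a log2 fold change of -0.45 ± 0.33 (edgeR adjusted p = 0.54), Klf3 of 0.28 ± 0.29 (0.68), Foxo1 of -0.07 ± 0.22 (0.93) and Klf2, not read, of -0.19 ± 1.14 (0.97). The members' median was -0.07, and that of all genes 0.00.

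From day 7 to day 30, GP66+ cells had more Klf3 and Cd69 and less S1pr4. Klf3 was 3.11-fold higher at day 30 in sufficient cells and 2.16-fold in deleted cells (log2 1.73 ± 0.29, edgeR adjusted p = 0.020), and both day 30 libraries lay above all 3 of day 7. Cd69 was 1.37-fold and 1.83-fold higher (0.90 ± 0.17, edgeR adjusted p = 0.025), with the levels of the 2 days overlapping across genotypes. S1pr4 was 0.495-fold and 0.730-fold (-0.63 ± 0.15, edgeR adjusted p = 0.043), and here too the days overlapped, since deleted cells of day 30 (162 CPM) lay above wild type (161 CPM) and sufficient (142 CPM) cells of day 7. With 2 members higher and 1 lower, 3 of 7 were called, against 21.8% of the genes tested (9.97% higher and 11.9% lower; 21% called with DESeq2), and the members' median was 1.21 against 0.03 for all genes. Scaling by library totals lowered the median of all genes by 0.18 and kept these 3 calls.

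S1pr1 (1.21 ± 0.32, edgeR adjusted p = 0.052; 2.56-fold in sufficient and 1.30-fold in deleted cells) and Foxo1 (0.81 ± 0.22, 0.055; 1.24-fold and 1.71-fold) lay just above the threshold, and both passed with DESeq2 (0.011 and 0.044). S1pr5 (1.95 ± 0.75, edgeR adjusted p = 0.12) was 4.46-fold higher at day 30 in deleted cells, while sufficient cells had 7 UMIs at day 7 and 0 at day 30. Leaving out the wild type library brought S1pr1 (1.01, 0.030), Foxo1 (0.68, 0.024) and S1pr5 (1.90, 0.033) past the threshold. Klf2, which is not read between libraries, had 2.16 ± 1.13 (edgeR adjusted p = 0.22) with all libraries, 1.66 (0.0014) without the wild type library and 2.08 (0.033) without a filter on low counts.

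The calls of the day comparison rested on single libraries. Without the deleted library of day 7, Klf3 had an edgeR adjusted p of 0.079, S1pr4 of 0.083 and Cd69 of 0.12; without the sufficient library of day 30 these were 0.18, 0.19 and 0.17, and without the deleted library of day 30 0.074, 0.078 and 0.12. S1pr4 also lost its call without the sufficient library of day 7 (0.11). With at least 1000 genes per cell, which kept 99 of 725 sufficient and 422 of 736 deleted cells of day 30, the Cd69 fold change fell to 0.38 (edgeR adjusted p = 0.39) and the S1pr4 call was lost (-0.58, 0.074), while Klf3 stayed past the threshold (1.68, 0.037). In CD4-like cells alone S1pr4 had an adjusted p of 0.062.

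Cells with a Klf2 UMI had more S1pr1 per UMI than cells without in 9 of 9 sums, with a counting interval above 1 in 7 of them, a median ratio of 1.75 and a range of 1.08 to 4.15. In CD4-like cells of total replicate 2, S1pr1 was at 184 CPM in the 454 cells with Klf2 and at 44.4 CPM in the 96 cells without, and in deleted cells of day 30 at 198 against 77.8 CPM. The ratio was lowest, at 1.08, in CD8-like cells of replicate 1. It was 1.25 in deleted cells of day 7 and 1.31 in CD8-like cells of replicate 2. In the 2 CD8-like sums the intervals reached 1. Klf3 (median ratio 1.69, range 1.04 to 7.88; interval above 1 in 6 of 9 sums) and S1pr4 (1.47, 1.20 to 2.51; 7 of 9) were likewise higher in cells with Klf2 in 9 of 9 sums. In total replicate 1, cells with a Klf2 UMI come more from barcode sets 1 and 2, so the split was also made within each set. In CD4-like cells the ratios of S1pr1 (3.48, 3.62 and 1.55 in sets 1, 2 and 3), Klf3 (2.61, 2.39 and 1.63) and S1pr4 (2.87, 4.34 and 1.73) stayed above 1 with their intervals. In CD8-like cells, S1pr4 had ratios of 1.35 and 2.21 in sets 1 and 2 and of 1.01 in set 3 (interval 0.931 to 1.10), and Klf3 of 1.60, 1.63 and 0.987 (0.887 to 1.10). There S1pr1 had 1.35, 1.56 and 1.17, with an interval above 1 in set 3 only. For Foxo1 the ratios were from 0.975 to 1.44, with 2 of 9 intervals above 1. These are cells of single libraries and not replicates, so no test was made. The share of all genes that are higher in cells with Klf2 in 9 of 9 sums was not counted. In every library but total replicate 1, free RNA held Klf2 at no lower a level than the cells did. The wild type GP66+ library had 34.5 CPM in free RNA and 33.5 CPM in cells. The part of free RNA in this split was not tested. The median UMI total of the cells with Klf2 was between 0.931 and 1.25 times that of the cells without.

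**Figure D4:**
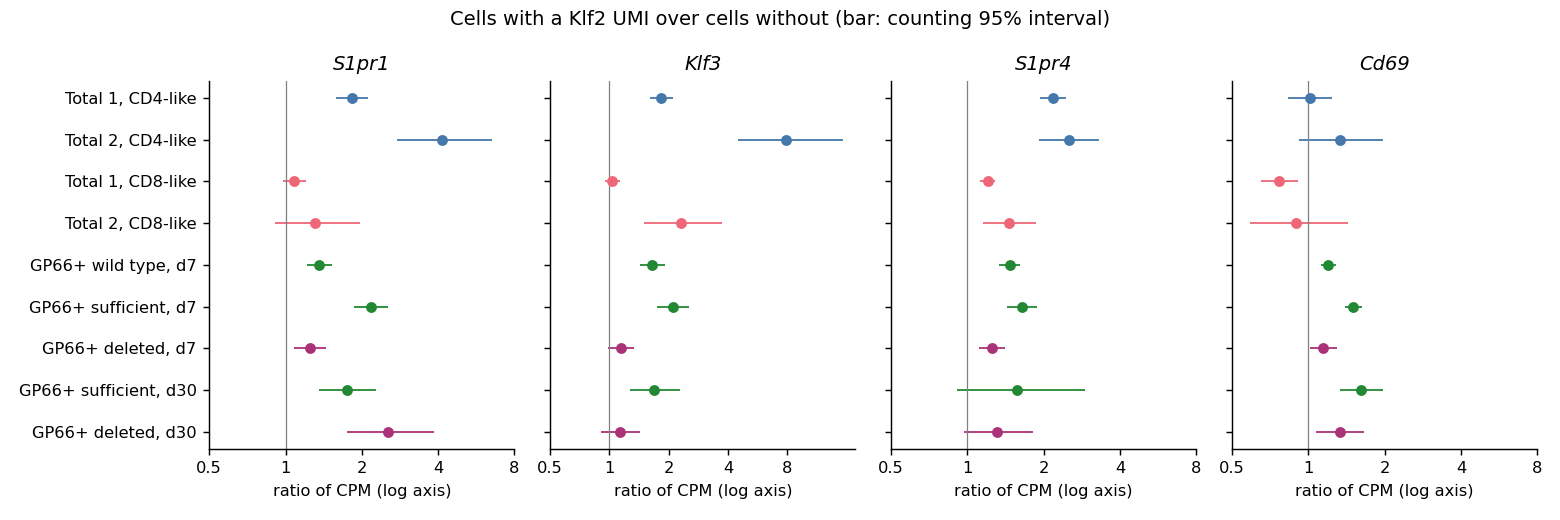
Ratio of the level (CPM) of S1pr1, Klf3, S1pr4 and Cd69 in cells with a Klf2 UMI over cells without, in each of the 9 sums, on a log axis with the exact binomial 95% interval (counting error only). S1pr1, Klf3 and S1pr4 lie above 1 in 9 of 9 sums, and Cd69 lies below 1 only in the 2 CD8-like sums (0.769 and 0.895).

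Cells with a Cd69 UMI had less S1pr4 than cells without in 9 of 9 sums, with ratios from 0.819 to 0.986 and 4 intervals below 1. S1pr1 was lower in 7 of 9, with ratios from 0.724 to 1.11 and 4 intervals below 1. Klf2 went the other way in the 7 sums other than those of CD8-like total cells, which include all cells of the deleted libraries. In these 7 sums Klf2 was higher in cells with Cd69, by 1.08-fold to 1.56-fold, with every interval above 1. In CD8-like cells Klf2 had ratios of 0.881 and 1.01 in replicates 1 and 2, and S1pr5 of 0.486 (interval 0.410 to 0.572) and 0.881 (0.666 to 1.16). As for the split by Klf2, the share of all genes was not counted. CD69 and KLF2 are known to act in opposite directions on S1PR1.

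Genes that act downstream of or around the S1P receptors were compared with a list of 22 measured genes (S1P enzymes and transporters, G proteins, RAC and coronin effectors, and the RGS proteins that shut the signal down). Over all genes, 38.3% were called by lineage, 28.1% by CD8 subset and by helper subset, 0.477% in GP66+ cells, 1.11% by genotype and 21.8% by day, and the counts of this and the next lists stand beside those shares. Of 17 tested, 2 were higher and 4 lower in CD8-like than CD4-like cells (median -0.01), no larger a share than over all genes, among them Rac2 (0.15) and Coro1a (0.13), which act on the actin cytoskeleton, and Gna13 (-0.52) and Grk6 (-0.53), a kinase that desensitises receptors. In Klrg1+ CD8-like cells 3 of 16 were higher, Gnai2 (0.45), which couples S1PR1 to its signal, Rac2 (0.40) and Coro1a (0.37), and 3 lower, Grk6 (-0.46) among them (median -0.04). In Cxcr6+ helper cells Rgs1 was higher (2.25) and 4 of 17 were lower, Rgs2 (-0.95) and Gna13 (-0.56) among them (median -0.11). Rgs2 was the 1 gene of 17 to pass in GP66+ cells (3.51, edgeR adjusted p = 0.0086; median 0.05). None of 17 passed by genotype (median 0.01), where Rgs1 had 1.51 (edgeR adjusted p = 0.11). At day 30, Rgs2 (2.03) and Gna13 (0.88) were higher and 3 were lower, Coro1a (-1.32) and Rac2 (-0.66) among them (median 0.18).

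Of the other KLF and FOXO family genes (14 measured), 5 of 10 tested were higher and none lower in CD8-like cells (median 0.20), Klf10 (0.53), Klf13 (0.26) and Klf6 (0.25) among them. In Klrg1+ CD8-like cells 1 of 9 was higher, Klf10 (0.80), and 4 were lower, such as Foxp1 (-1.17), which holds T cells in quiescence, and Klf7 (-0.80), with a median of -0.46. In Cxcr6+ helper cells 1 of 11 was higher and 4 lower, Klf4 (-0.97) and Klf7 (-0.90) among them (median -0.10). None of 11 passed by specificity for GP66 (median 0.44; Klf6 1.68, edgeR adjusted p = 0.14) or by genotype (median -0.34; Klf4 -0.74, 0.32). By day 7 of 11 were higher and none lower, with Klf9 (3.73), Klf4 (3.37), Foxo3 (1.81) and Klf6 (1.68), beside Klf3 (median 1.18).

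Of the genes around PI3K and FOXO (15 measured), 7 of 14 were higher in CD8-like cells and 1 lower (median 0.26), with Sgk1 (2.08), a kinase that acts on FOXO proteins, and Sesn3 (-1.26), a FOXO target, among them. In Klrg1+ CD8-like cells 2 of 14 were higher and 7 lower, including Pik3ip1 (-2.19), an inhibitor of PI3K, Sesn1 (-1.58), Sesn3 (-1.13) and Txnip (-1.12), beside the lower Foxo1 (median -0.45). In Cxcr6+ helper cells, where Foxo1 was lower too, 3 of 14 were higher and 2 lower, Sgk1 (0.96), Pik3r1 (0.79) and Sesn3 (-0.99) among them (median -0.08). None passed in GP66+ cells (14 tested, median -0.18), where Txnip had -1.61 (edgeR adjusted p = 0.052), or by genotype (15 tested, median -0.05), where Cdkn1b had -1.03 (edgeR adjusted p = 0.30). At day 30, 6 of 15 were higher and none lower, Sgk1 (1.77), Pik3ip1 (1.51) and Txnip (1.49) among them (median 0.80).

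Of 20 genes of homing and adhesion, 10 of 20 tested were higher in CD8-like cells and 6 lower (median 0.41), with the chemokine receptor gene Cx3cr1 (3.97) beside S1pr5. In Klrg1+ CD8-like cells 8 of 18 were higher, Cx3cr1 (2.71) among them, and 7 lower, with the chemokine receptor gene Ccr7 (-5.64) among them (median 0.21). In Cxcr6+ helper cells 10 of 17 were higher, such as Ccr2 (6.49) and Cx3cr1 (5.67), and 4 lower, Ccr7 (-2.26) among them (median 0.54). None of 18 passed in GP66+ cells (median -0.22; Il7r -2.93, edgeR adjusted p = 0.18). By genotype 4 of 19 were higher, Cx3cr1 (4.13) and Cxcr6 (1.67) among them, and Cxcr5 was lower (-3.31), with a median of 0.09. By day 4 of 19 were higher, Il7r (4.91), Cxcr4 (2.25) and Ccr7 (1.80) among them, and 2 lower, with Cxcr3 (-1.20; median 0.28).

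Of 15 T-box and tissue residency factors, 8 of 14 tested were higher in CD8-like cells and 4 lower (median 0.77), among them Zeb2 (4.19) and Eomes (2.90) on one side and Id3 (-3.06) and Tcf7 (-2.72) on the other; T-bet and ZEB2 are known to drive S1pr5. In Klrg1+ CD8-like cells 5 of 14 were higher and 5 lower, with Zeb2 (3.11) and Tcf7 (-3.89; median -0.08), and in Cxcr6+ helper cells 7 and 3 of 14, with Prdm1 (3.14) and Id2 (2.91; median 0.44). None of 14 passed in GP66+ cells (median -0.11). By genotype 4 of 14 were higher and none lower, Eomes (5.09), Zeb2 (2.20), Id2 (1.66) and Prdm1 (1.57), with a median of 0.56. By day 3 of 14 were higher and none lower, Zeb2 (1.76) and Smad7 (1.73) among them (median 0.50).

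Of 17 early response genes, which are switched on within minutes of stimulation as Cd69 is within hours, none was higher and 11 lower in CD8-like cells (median -0.63; Egr1 -1.75, Nfkbia -1.05), beside the lower Cd69. None of 14 was higher and 9 were lower in Klrg1+ CD8-like cells (median -0.84; Jun -1.66), and 3 of 17 were higher and 9 lower in Cxcr6+ helper cells (median -0.29; Egr2 -2.32, Fos -1.03). In GP66+ cells 8 of 17 were higher and none lower (median 2.93), with Nr4a2 (4.97), Dusp1 (4.09) and Nr4a1 (4.05) beside Cd69. None passed by genotype (median -0.86; Jun -1.94, edgeR adjusted p = 0.062). At day 30, 12 of 17 were higher and none lower, Nr4a3 (3.69) and Nr4a2 (2.57) among them (median 1.89). No gene of the 6 lists passed the interaction of genotype and day.

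Over the 9 sums, the genes most like a member were named by the Pearson correlation of log2(CPM + 5), as a description of 9 sums that share libraries. For Cd69 these were Fos (r = 0.99), Uhrf2 (0.99) and Ppp1r15a (0.99), of which Fos and Ppp1r15a are early response genes. Fos was at 1.08 to 14.8 CPM in the sums of total cells and at 35.7 to 253 CPM in GP66+ cells, lowest of them in deleted cells of day 7, as Cd69 was. For S1pr5 they were Samd3 (0.99), Acss2 (0.97) and Tmem37 (0.97); Samd3 was at 35.2 and 20.6 CPM in CD8-like cells and at 12.6 CPM in deleted cells of day 30, against 1.29 CPM in sufficient cells of that day. For Klf2 they were Cnot3 (0.96), Synrg (0.96) and Rnf220 (0.95), whose levels had a far smaller range (Cnot3 34.0 to 62.6 CPM) and were likewise lowest in the wild type GP66+ library.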

How the data were processed

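Each library was deposited as a matrix of UMI counts per gene and cell barcode. Per the submitters' processing notes, the authors used bcl2fastq 2.17 and Cell Ranger with mm10; no source used here tells how reads were assigned to genes. Cells had at least 10% of the 99th percentile of UMIs of the top 3000 barcodes, 500 genes and at most 10% mitochondrial UMIs. In the total libraries, B-like and myeloid clusters (190 and 12 cells; scanpy 1.11.5, igraph 0.11.9, Leiden resolution 0.8) were left out. No doublet caller was run; cells above 2.5 times the median UMI total were removed as an alternative.

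UMIs were summed per library and class, and levels are sums per 1000000 UMIs (CPM). Sums were tested with edgeR 4.0.16 (R 4.3.3; TMM scaling, filterByExpr, quasi-likelihood F test, Benjamini-Hochberg over all genes tested, threshold 0.05), checked on simulated counts, with DESeq2 1.42.0 as the alternative. The standard error is the absolute log2 fold change over the square root of F. The total replicates and, for helper subsets, all intact libraries were blocks where both classes came from 1 library. The pairing comes from the same capture. Genotype and day were fitted together over 5 libraries. Intervals are exact at 95% and cover counting error only.

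All 7 members were named in every library, and from each list per comparison up to 4 genes with the largest absolute fold change among called genes at 20 CPM or more (otherwise 2 uncalled); some of these are not reported here. The members and lists were chosen with earlier results of these data known. Other alternatives were no filter on low counts, library totals, 1000 genes per cell, other cell sets and leaving out libraries.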

Additional observations from a re-analysis of the deposited data

How the results depend on the processing

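Over 533 alternatives of members' fold changes, 426 kept direction and, where there was a p-value, side of the threshold, 38 gained a call, 43 lost one and 26 changed sign. The 426 include fits with no residual degrees of freedom, which gave no p-value and were judged by direction alone. Counts of called genes moved most. DESeq2 called 1380 genes for lineage (edgeR 3903), 178 for GP66 specificity (49), 473 for genotype (120), 6 for genotype by day (0) and 641 for CD8 subset (2475). Without a filter on low counts there were 765 for specificity, 791 for genotype and 10 for genotype by day. With at least 1000 genes per cell genotype gave 72 and day 580 (2361), with CD4-like cells 52 and 813, and genotype gave 70 in cells with no Cxcr5 UMI. Without the library block (no replicate block) there were 1148 for lineage, 427 for helper subset (2567) and 715 for CD8 subset. Without it, lineage kept the calls of S1pr4 and S1pr5 alone, and the helper subset kept none (S1pr4 0.95, edgeR adjusted p = 0.065). The comparisons of GP66 specificity, genotype and day set different libraries against each other. No label pairs these libraries, so those fits had no block. Without barcode set 3 of total replicate 1, an alternative chosen after seeing the data, specificity gave 20 and CD8 subset 1647. The split by Klf2 within barcode sets was also chosen after seeing the data. Leaving out 1 library gave 0 to 583 genes for specificity, 0 to 417 for genotype, 0 to 2905 for day and 1597 to 2717 for helper subset; for lineage, CD8 subset and genotype by day it left no residual degrees of freedom, so it gave values with no test. The causes were not tested.

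With library totals, the split of higher and lower genes was 1412 and 2491 for lineage (1915 and 1988 with TMM), 682 and 1429 for day (1078 and 1283), 1493 and 676 for CD8 subset (1209 and 1266) and 86 and 25 for genotype (79 and 41), and the median of all genes moved by -0.18 for day, 0.26 for genotype by day and 0.16 for CD8 subset. Signs changed for these log2 values, given for left-out libraries as the lowest and highest. Lineage: S1pr1 -0.24 to 0.081 (above 0 without total replicate 2). Specificity: Klf2 -4.45 to 0.20 (above 0 without total replicate 2 or the wild type library), Foxo1 -0.12 to 0.44 (below 0 without total replicate 1 or the sufficient library), S1pr1 -0.30 to 0.045 (above 0 without the wild type library). Genotype: Klf2 -0.68 to 1.63 and Foxo1 -0.19 to 0.12 (above 0 without the sufficient library of day 7), Klf3 -0.29 to 0.67 (below 0 without the deleted library of day 7), S1pr1 -1.23 to 0.091 (above 0 without either library of day 30), Foxo1 0.020 with library totals and 0.16 with 1000 genes per cell. Day: S1pr5 -4.56 to 2.16 (below 0 without either deleted library). Genotype by day: Klf2 -4.14 to 0.51 (above 0 without the wild type library) and 0.030 with 1000 genes per cell, Foxo1 -0.32 to 0.27 and Cd69 -0.21 to 0.23 (below 0 without the sufficient library of day 7). Helper subset: Klf3 -0.038 to 0.18 (below 0 without total replicate 1) and -0.0062 without the block. CD8 subset: Klf2 -0.25 to 0.17 (above 0 without total replicate 2), 0.12 with library totals, 0.031 without a filter, 0.026 with 1000 genes per cell and 0.0070 without cells of high UMI totals. None of these passed with all libraries in the fits reported above; without a filter on low counts, Klf2 in specificity and S1pr5 by day did (edgeR adjusted p = 0.00096 and 0.027). Few S1pr5 UMIs in helper cells limited its values there.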

Other observations

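Cells with a Ccr7 UMI and none of Cxcr5 or Cxcr6 formed a further class, in which the gene of the lymph node homing receptor CCR7 was detected. It was taken among CD4-like cells of the total libraries and among all cells of the GP66+ libraries. Klf2 was at 581 CPM in its 240 CD4-like cells of total replicate 1 and at 1521 CPM in its 95 cells of replicate 2, above both the Cxcr6+ and the Cxcr5+ cells of the same libraries. S1pr1 was at 165 and 235 CPM there, and Klf3 at 223 and 224 CPM, again above both other classes. In sufficient GP66+ cells of day 7 this class (371 cells) had 1045 CPM of Klf2, 162 CPM of S1pr1 and 120.0 CPM of Klf3, above both other classes. This did not hold in all libraries: Klf2 was at 592 CPM in the Ccr7+ class against 602 CPM in Cxcr5+ cells of the deleted library of day 7, and at 1731 against 1852 CPM in the sufficient library of day 30. In the deleted library of day 30, Ccr7+ cells had less Klf2 (1173 CPM) than Cxcr6+ (1330 CPM) and Cxcr5+ cells (2312 CPM), and less Klf3 (188 against 258 and 381 CPM). No test was made of this class.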
